A study of Mus musculus with 12 samples.

Results

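The mouse p200 or HIN-200 genes lie side by side on chromosome 1 and encode proteins related to AIM2. Aim2, Mndal, Ifi203, Ifi204, Ifi207, Ifi208, Ifi209 and Ifi213 were taken by name, with earlier results of these data known. They make 8 of the 53379 genes in the count table. Of these 8 genes, 6 had enough counts to be tested among 14299 genes, and Ifi204 and Ifi207 did not.

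RNA was sequenced from 12 libraries of 1 Eµ-myc B cell lymphoma line from C57BL/6 mice, in which an immunoglobulin heavy chain enhancer drives the Myc oncogene in cells of the B lineage. There were 4 groups of 3 libraries: unstimulated cells and cells that received recombinant mouse IFN-γ (interferon-γ), 5 ng/mL, for 1 h, 6 h or 24 h. The 1 h and 6 h exposures were ended with a neutralising antibody to IFN-γ (clone XMG1.2, 50 µg/mL), and cells were harvested 24 h after stimulation began, so these groups report what is left long after the cytokine was blocked. Whether the libraries within a group are separate cultures is not stated, nor is any antibody for the 24 h and unstimulated cells or the harvest time of unstimulated cells. The p-values therefore measure the spread between libraries, which may be technical. No group is described as having received the antibody alone. In every comparison with the 1 h or 6 h group, effects of IFN-γ exposure and of the antibody therefore cannot be told apart.

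Many p200 proteins join a pyrin domain, which binds other pyrin domains, to a HIN domain, which binds DNA. AIM2 is the best known. When double-stranded DNA reaches the cytosol, AIM2 binds it and recruits the adaptor ASC (gene Pycard) and caspase-1, which cleaves pro-interleukin-1β, pro-interleukin-18 and gasdermin D. Other p200 proteins act in the nucleus or upstream of STING, and the mouse protein p202 (Ifi202b) lacks a pyrin domain and inhibits AIM2. Many genes that interferons raise carry short promoter elements, the gamma-activated site (GAS) in targets of IFN-γ and the interferon-stimulated response element (ISRE), which IRF factors bind.

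The promoters are shown because most of these genes share 1 short sequence near the start of transcription. RefSeq promoters on GRCm38.p6 (250 bases before to 50 bases after each start) were at hand for 7 of the 8 genes, and for 12 of the 13 p200 genes in the annotation. The 10 letters GAAATCGAAA, 1 form of the ISRE core (GAAA repeated after a gap of 2 bases), were read from the Mndal promoter and then searched on both strands of all promoters. They stood in the promoters of 5 of the 8 genes and of 7 p200 genes in all, and in 16 of the 32851 mouse promoters (0.0487%). Mndal, the source of the letters, is in each of these counts by construction, so the counts are no test. The core with any 2 bases in the gap, which includes those 10 letters, was found in 1131 promoters (3.44%), and the GAS letters TTCNNNGAA in 2726 promoters (8.3%). Among the p200 genes, a GAS match was found in 1, Ifi202b. Each window below has 50 bases in the direction of transcription, and capitals mark the best match to the 10 letters on that strand. A match is a description of the letters in the window and no evidence of binding.
Mndal, chr1:173880194-173880243, minus strand: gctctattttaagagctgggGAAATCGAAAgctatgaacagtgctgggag
Ifi203, chr1:173942498-173942547, minus strand: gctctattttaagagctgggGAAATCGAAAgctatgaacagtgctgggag
Ifi213, chr1:173599316-173599365, minus strand: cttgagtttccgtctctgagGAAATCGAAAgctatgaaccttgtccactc
Ifi208, chr1:173673587-173673636, plus strand: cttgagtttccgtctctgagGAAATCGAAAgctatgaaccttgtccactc
Ifi207, chr1:173741821-173741870, minus strand: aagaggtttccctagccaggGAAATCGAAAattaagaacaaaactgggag
Ifi209, chr1:173630760-173630809, plus strand: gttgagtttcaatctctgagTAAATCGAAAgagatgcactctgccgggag
Aim2, chr1:173420459-173420508, plus strand: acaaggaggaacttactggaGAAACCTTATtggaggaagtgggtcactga

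The windows of Mndal and Ifi203 were identical, with 0 differing bases, and so were those of Ifi208 and Ifi213. The match began 36 bases before the first annotated start of Mndal and 35 before the second of Ifi203. It began 41 bases before the start in Ifi207, 58 in Ifi208 and 73 in Ifi213. Mndal and Ifi203 each have 2 promoter entries, and only the entry with the match is printed for them. On that strand, the closest form in the other entry had 3 mismatches in Mndal and 4 in Ifi203. In Ifi209 the 10 letters, which began 79 bases before the start, carried 1 substitution, G1T (positions counted from 1 at the 5′ end of GAAATCGAAA). Aim2 had no stretch with fewer than 4 mismatches on that strand. The full promoters of Mndal, Ifi209 and Aim2 are given because these genes gave 3 different patterns in the counts. Any link of the promoter letters to the counts was not tested. The promoters of Mndal and Aim2 lie inside the annotated spans of these genes, given below, and not at the 5′ ends of the spans. Capitals again mark GAAATCGAAA or its closest form where it had at most 1 mismatch.
Mndal promoter, chr1:173880138-173880437, minus strand: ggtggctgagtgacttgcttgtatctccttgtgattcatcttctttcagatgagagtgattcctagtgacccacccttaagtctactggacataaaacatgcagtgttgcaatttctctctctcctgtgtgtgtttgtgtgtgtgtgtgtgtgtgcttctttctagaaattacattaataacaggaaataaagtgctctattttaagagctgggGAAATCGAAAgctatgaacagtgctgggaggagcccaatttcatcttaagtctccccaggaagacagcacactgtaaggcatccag
Ifi209 promoter, chr1:173630609-173630908, plus strand: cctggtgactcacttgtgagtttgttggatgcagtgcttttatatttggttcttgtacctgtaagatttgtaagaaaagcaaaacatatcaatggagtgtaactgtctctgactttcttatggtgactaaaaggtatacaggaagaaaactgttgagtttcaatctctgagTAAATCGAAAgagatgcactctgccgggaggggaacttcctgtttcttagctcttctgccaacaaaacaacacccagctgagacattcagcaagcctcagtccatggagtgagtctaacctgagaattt
Aim2 promoter, chr1:173420354-173420653, plus strand: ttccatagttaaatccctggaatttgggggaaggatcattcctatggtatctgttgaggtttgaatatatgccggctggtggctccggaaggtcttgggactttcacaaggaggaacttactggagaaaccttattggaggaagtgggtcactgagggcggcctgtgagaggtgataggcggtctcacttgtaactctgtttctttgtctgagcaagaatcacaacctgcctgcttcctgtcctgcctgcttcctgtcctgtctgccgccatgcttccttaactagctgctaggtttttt

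On GRCm38 (GENCODE M21), the 8 genes span 591.8 kb, chr1:173350879-173942672, and all are annotated as protein coding. Aim2 lies at one end (plus strand, 173350879 to 173466040) and Ifi203 at the other (minus strand, 173920407 to 173942672). The annotated span of Mndal (minus strand, 173849126 to 173942491) runs through Ifi203, with which it shares 37 exon bases. Between the ends lie Ifi213 (173566283 to 173599274), Ifi209 (173630917 to 173647928), Ifi208 (173673675 to 173698395), Ifi207 (173723427 to 173741747) and Ifi204 (173747293 to 173766943). Within 500 kb on either side of the span lay 47 other annotated genes, of which 43 had 0 counts in every library. One of them was tested, the pseudogene Ifi203-ps, with 89 counts in the 12 libraries together and a log2 fold change of 1.51 after 24 h (edgeR adjusted p = 0.109).

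**Figure D1:**
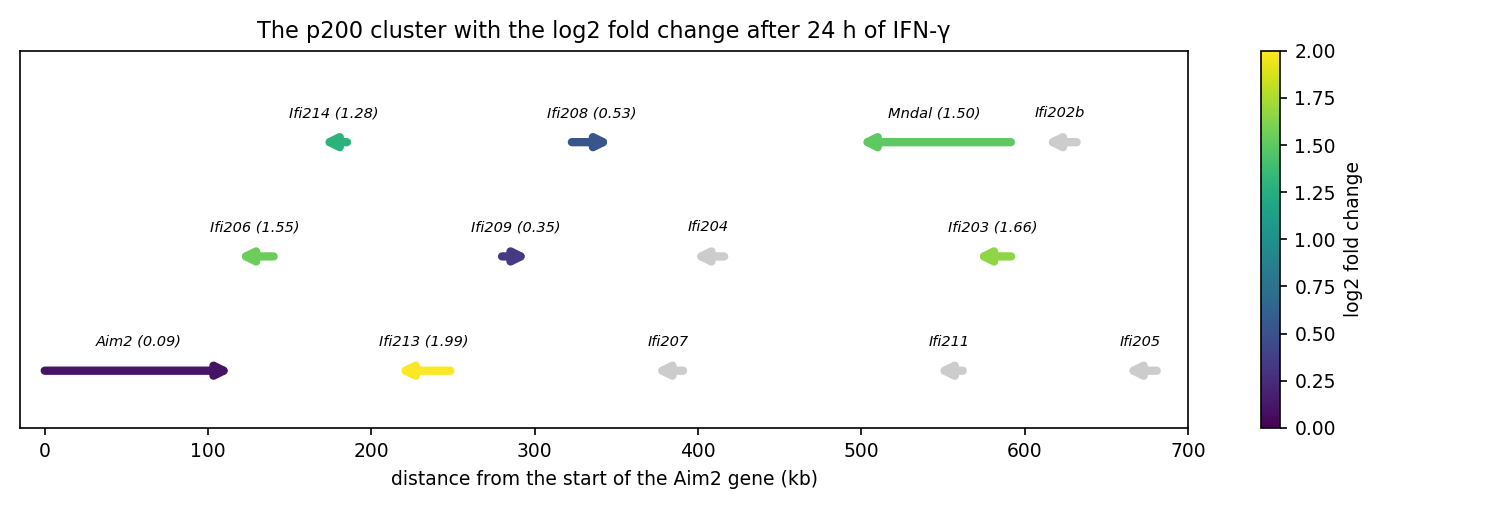
The p200 genes of the cluster along the chromosome, in kb from the start of Aim2, with arrows pointing in the direction of transcription. Colour and the number in brackets give the log2 fold change after 24 h of IFN-γ over unstimulated cells; grey genes had too few counts to be tested, and the values of Aim2 (0.09) and Ifi208 (0.53) did not pass the test.

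Library totals ran from 49440358 to 67096610 counts. IFNg_6h replicate 3 stood apart from the other 11 libraries on the second principal component (7.84% of the variance), while the first (44.2%) separated the 24 h libraries from the other 9. Irf1, an early IFN-γ target, showed that the cytokine acted: it averaged 221 ± 8.92 CPM after 24 h (CPM, counts scaled to library size with TMM factors; SD, n = 3) against 10.6 ± 0.245 CPM in unstimulated cells. It averaged 12.1 ± 0.579 CPM after 6 h and 10.5 ± 0.29 CPM after 1 h, and neither value passed the test against unstimulated cells. The 9 B cell markers summed to 2363 to 2367 CPM in 24 h libraries and 2512 to 2578 CPM in unstimulated libraries, with no marker at 0. The 10 myeloid markers summed to 5.35 to 6.26 CPM after 24 h and 5.81 to 7.01 CPM in unstimulated cells, and Ly6g, S100a8 and S100a9 were at 0 in every library. The 9 T and NK cell markers summed to at most 1.35 CPM in any library and the 6 dendritic cell markers to at most 3.09 CPM. What part the lower B cell sum had in the results below was not tested, and in bulk RNA fewer cells of a type and less RNA per cell cannot be told apart.

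After 24 h of IFN-γ, Mndal, Ifi203, Ifi209 and Ifi213 rose relative to unstimulated cells, and none of the 6 tested genes fell. Mndal rose 2.84-fold, Ifi203 3.16-fold, Ifi213 3.96-fold and Ifi209 1.27-fold, while the values of Aim2 and Ifi208 did not pass the test. A gene is called here when its Benjamini-Hochberg adjusted p over the 14299 genes in edgeR's quasi-likelihood test is under 0.05. Of all tested genes, 18.7% were called in this comparison, 10.3% as higher. In the 4 genes called, each 24 h library was above each unstimulated one, as in 17.2% of all tested genes. The median log2 fold change over the 6 tested genes was 1.02, beside -0.0028 over all tested genes, with Ifi204 and Ifi207 left out for low counts.

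Mndal encodes the myeloid nuclear differentiation antigen-like protein, a nuclear protein. Its level was 78.6, 88.1 and 83.0 CPM in the 3 unstimulated libraries, 86.6, 81.0 and 85.1 CPM after 1 h, 87.8, 91.3 and 95.9 CPM after 6 h, and 239, 249.5 and 220.3 CPM after 24 h. Every 24 h library was above every other library, and the 1 h and 6 h libraries overlapped the unstimulated ones. The log2 fold change of 24 h IFN-γ over unstimulated cells was 1.505 ± 0.0514 (SE; edgeR adjusted p = 1.31e-19). After 6 h it was 0.14 ± 0.0513 (adjusted p = 0.188) and after 1 h 0.02 ± 0.0513 (adjusted p = 0.954).

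Ifi203, which encodes a pyrin and HIN protein of the mouse, had 81.2, 92.8 and 84.0 CPM in unstimulated libraries, 96.6, 86.0 and 91.3 CPM after 1 h, 96.0, 96.7 and 92.6 CPM after 6 h, and 274, 281 and 259 CPM after 24 h. Again the 24 h libraries lay above all 9 others, while the 3 remaining groups overlapped. Its log2 fold change was 1.66 ± 0.0512 after 24 h (adjusted p = 1.15e-20), 0.15 ± 0.051 after 6 h (adjusted p = 0.161) and 0.09 ± 0.0509 after 1 h (adjusted p = 0.628). Without unstimulated replicate 2, its 6 h change of 0.20 was called (adjusted p = 0.0358).

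Ifi209, which RefSeq also lists as Pyhin1, was higher in every exposed group. It had 121.6, 133.9 and 129.2 CPM in unstimulated libraries, 142.9, 146.3 and 152.1 CPM after 1 h, 152.8, 156.9 and 166.4 CPM after 6 h, and 164, 166.2 and 159.5 CPM after 24 h. All 9 IFN-γ libraries were above the highest unstimulated library, and the 6 h and 24 h libraries overlapped. In the 1 h and 6 h groups, IFN-γ exposure and the antibody cannot be told apart. The log2 fold change was 0.35 ± 0.0449 after 24 h (adjusted p = 9.46e-07), 0.31 ± 0.045 after 6 h (adjusted p = 0.000127) and 0.20 ± 0.045 after 1 h (adjusted p = 0.0384). It was the 1 gene of the 6 called after 6 h, where 1.59% of all tested genes were called (1.17% as higher), and the 1 called after 1 h, where 0.42% were (0.273% as higher). Each library of the exposed group was above each unstimulated one in 8.64% of all tested genes after 6 h and in 7.8% after 1 h. Besides Ifi209, the 6 h changes of Aim2, Mndal and Ifi203 had an unadjusted p under 0.05, so 4 of the 6 tested genes had one, as 14% of all tested genes did. The 6 h call of Ifi209 held without IFNg_6h replicate 3, at 0.27 (adjusted p = 0.000402). The 1 h call was lost when any 1 h library, or unstimulated replicate 1 or 3, was left out (log2 fold changes 0.16 to 0.22, adjusted p = 0.103 to 0.344). In these runs 0.102 to 0.301% of all tested genes were called, beside 0.42% in the full fit.

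Aim2, the cytosolic DNA sensor, had 26.5, 30.4 and 27.7 CPM in unstimulated libraries, 30.0, 29.4 and 30.1 CPM after 1 h, 30.6, 32.0 and 30.6 CPM after 6 h, and 29.1, 30.5 and 30.6 CPM after 24 h. The 24 h and unstimulated libraries overlapped, while the lowest 6 h library was above the highest unstimulated one. Its log2 fold change was 0.09 ± 0.0602 after 24 h (adjusted p = 0.303), 0.14 ± 0.0603 after 6 h (adjusted p = 0.283) and 0.08 ± 0.0602 after 1 h (adjusted p = 0.721). With 1475 to 2058 counts in each library, its ratio of summed counts at 24 h over unstimulated was 1.07, with a 95% interval of 1.03 to 1.11 that covers counting error only.

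**Figure D2:**
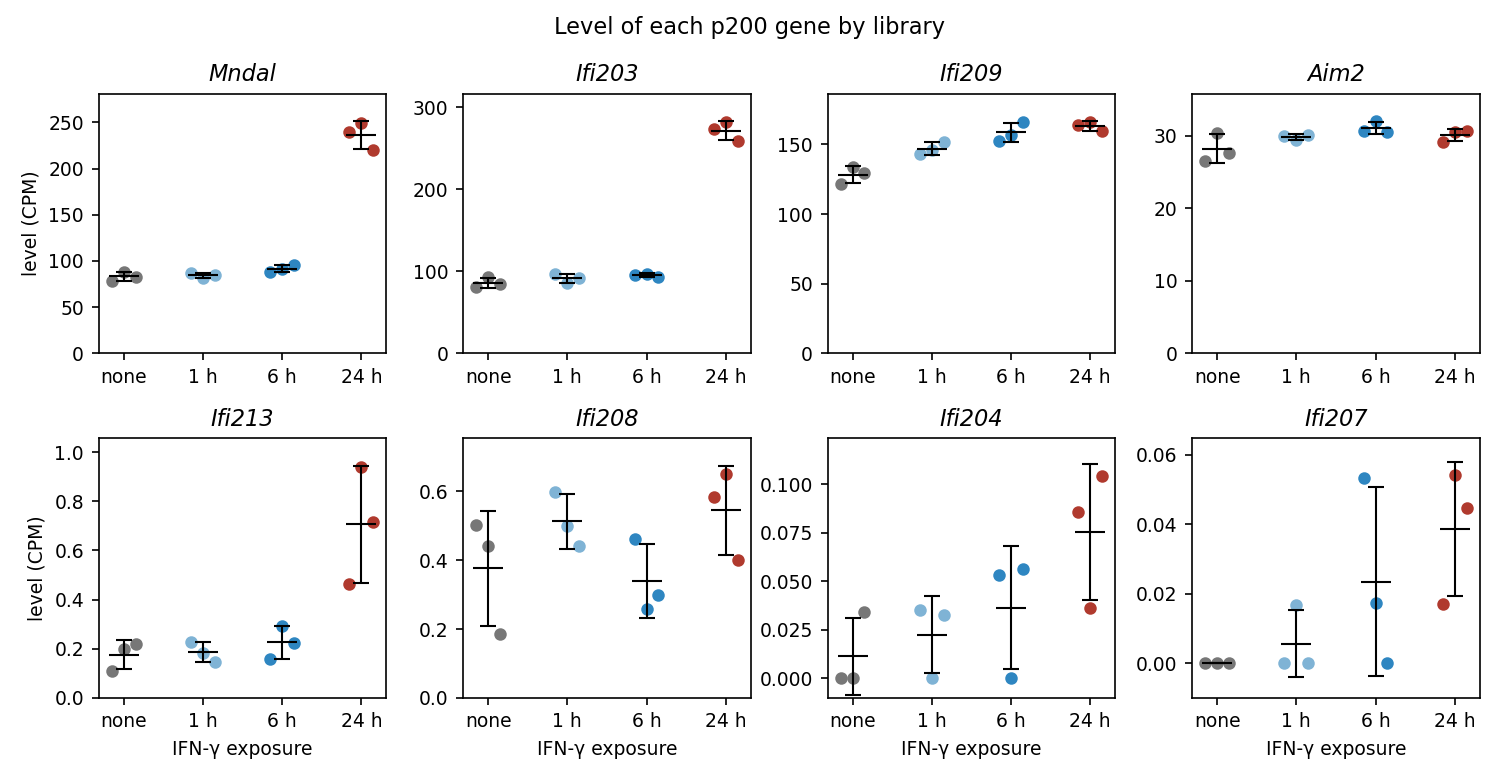
Level in CPM of each of the 8 genes in every library, by length of IFN-γ exposure (none is unstimulated); points are libraries, the long dash is the mean and bars are the SD (n = 3), with a separate linear axis for each gene. Mndal and Ifi203 stand high at 24 h and overlap the unstimulated libraries after 1 h and 6 h, Ifi209 is above the unstimulated libraries in all 3 exposures, and Aim2 lies between 26.5 and 32.0 CPM throughout.

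The other 4 genes were close to the detection limit. Ifi213, also listed as Pydc4, had 6, 10 and 13 counts in unstimulated libraries, 13, 11 and 9 after 1 h, 9, 17 and 12 after 6 h, and 27, 52 and 48 after 24 h. Every 24 h library was above the rest, and the other 3 groups overlapped. Its log2 fold change after 24 h was 1.99 ± 0.443 (adjusted p = 0.00167), and after 6 h 0.35 ± 0.491 (adjusted p = 0.817). It reached the filter's 0.1725 CPM in all 3 libraries at 24 h and in 2 of 3 in each other group.

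Ifi208, also listed as Pydc3, had 28, 22 and 11 counts in unstimulated libraries, 34, 30 and 27 after 1 h, 26, 15 and 16 after 6 h, and 34, 36 and 27 after 24 h. The groups overlapped, and the log2 fold change after 24 h was 0.53 ± 0.402 (adjusted p = 0.397). Ifi213 was called after 24 h and Ifi208 was not, and the printed windows of both genes are identical. The difference between their changes was not tested.

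Ifi204 encodes p204, a mouse relative of human IFI16 that senses DNA upstream of STING. It had 0, 0 and 2 counts in unstimulated libraries, 2, 0 and 2 after 1 h, 3, 0 and 3 after 6 h, and 5, 2 and 7 after 24 h. Summed over libraries and scaled to depth, the ratio of its 14 counts at 24 h to its 2 in unstimulated cells was 6.37, with a 95% counting interval of 1.46 to 57.7. Ifi207 had 0 counts in all 3 unstimulated libraries, at most 1 after 1 h, at most 3 after 6 h, and 1, 3 and 3 after 24 h, so no fold is given.

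Per kilobase of exon, the order of the genes changed with 24 h of IFN-γ. The length is that of all annotated exons of a gene joined, 6706 bases for Ifi203 and 3628 for Mndal, and the order depends on it. By mean CPM, Ifi203 stood above Mndal in unstimulated cells (86.0 against 83.3) and after 24 h (271 against 236). In unstimulated cells Ifi209 was the highest at 36.2 CPM per kb, followed by Mndal at 23.0, Ifi203 at 12.8 and Aim2 at 8.05. The same order held after 1 h and after 6 h, and the ranges of these 4 genes did not overlap within any group. After 24 h Mndal was the highest at 65.1 CPM per kb, followed by Ifi209 at 46.0, Ifi203 at 40.5 and Aim2 at 8.59, again without overlap. Ifi208 and Ifi213, at 0.104 and 0.103 CPM per kb after 24 h, overlapped each other. They lay below these 4 genes and above Ifi204 and Ifi207, whose ranges overlapped.

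The 8 genes together reached 326 ± 18.8 CPM in unstimulated cells, 353 ± 8.57 CPM after 1 h, 377 ± 9.1 CPM after 6 h and 702 ± 29.8 CPM after 24 h (SD, n = 3 each). Mndal and Ifi203 made up 72.3% ± 0.712 of the counts of the 8 genes after 24 h, against 51.9% ± 0.409 in unstimulated cells. Their share was 49.5% ± 0.605 after 6 h and 49.7% ± 1.44 after 1 h. The ratio of Ifi203 to Mndal per kb was 0.622 ± 0.0128 after 24 h and 0.559 ± 0.0113 in unstimulated cells, and the libraries of these groups did not overlap.

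**Figure D3:**
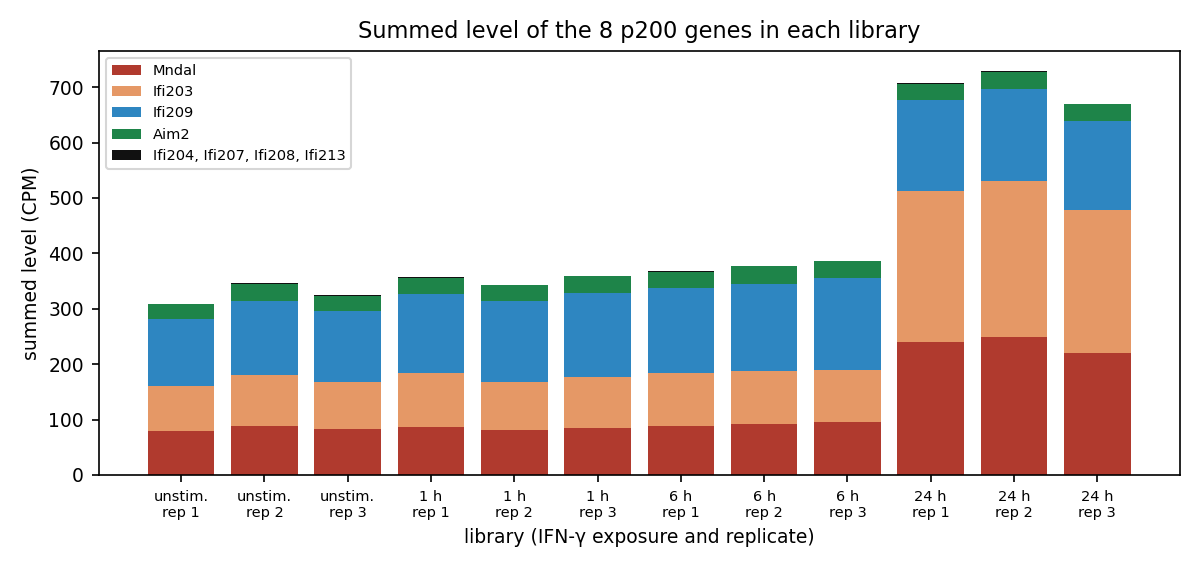
Summed level in CPM of the 8 genes in each of the 12 libraries, stacked by gene; the axis starts at 0. The sum averages 326 CPM in unstimulated libraries and 702 CPM after 24 h, where Mndal and Ifi203 fill 72.3% of it, and the 4 scarce genes are hardly visible.

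To describe how much of the 24 h change was present after a shorter exposure, the level above the unstimulated mean was expressed as a percentage of the mean 24 h gain. After 6 h Mndal stood at 5.504% (2.97 to 8.28% over the 3 libraries) and Ifi203 at 4.91% (3.57 to 5.79%). Ifi209 stood at 87.1% (70.2 to 109%) after 6 h and at 54.0% (41.9 to 68.3%) after 1 h. Mndal and Ifi203 had 0.616% and 2.86% after 1 h. Ifi213 stood at 9.30% (-3.14 to 21.9%) after 6 h and at 1.89% after 1 h. Aim2 and Ifi208 are left out because their 24 h change was not called, and this percentage was not tested.

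The exposures were also compared with each other. For 24 h against 6 h of IFN-γ, the log2 fold change was 1.37 ± 0.0511 for Mndal (adjusted p = 1.51e-18), 1.51 ± 0.0509 for Ifi203 (adjusted p = 1.12e-19) and 1.63 ± 0.428 for Ifi213 (adjusted p = 0.00774). These 3 of the 6 tested genes were called higher, where 16.5% of all tested genes were called, 8.92% as higher. For Ifi209 it was 0.04 ± 0.0447 (adjusted p = 0.605) and for Aim2 -0.05 ± 0.0599 (adjusted p = 0.669). Leaving out IFNg_24h replicate 2 or IFNg_6h replicate 1 ended the call of Ifi213 (adjusted p = 0.069 and 0.0609).

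Against 1 h of IFN-γ, 24 h gave 4 genes called higher, where 18.9% of all tested genes were called, 10.2% as higher. The log2 fold change was 1.49 for Mndal, 1.57 for Ifi203, 1.91 for Ifi213 and 0.15 for Ifi209 (adjusted p = 0.0176). The Ifi209 call was lost without IFNg_24h replicate 2, IFNg_1h replicate 1 or IFNg_1h replicate 2 (adjusted p = 0.0524 to 0.0741). Between 6 h and 1 h edgeR called 0 of the 6 genes, where 0.0979% of all tested genes were called. Mndal and Ifi209 were the 2 with an unadjusted p under 0.05 (0.0234 and 0.0215), as 4.94% of all tested genes had, with log2 fold changes of 0.12 and 0.11, and DESeq2 also called 0. These comparisons share libraries with those against unstimulated cells.

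**Figure D4:**
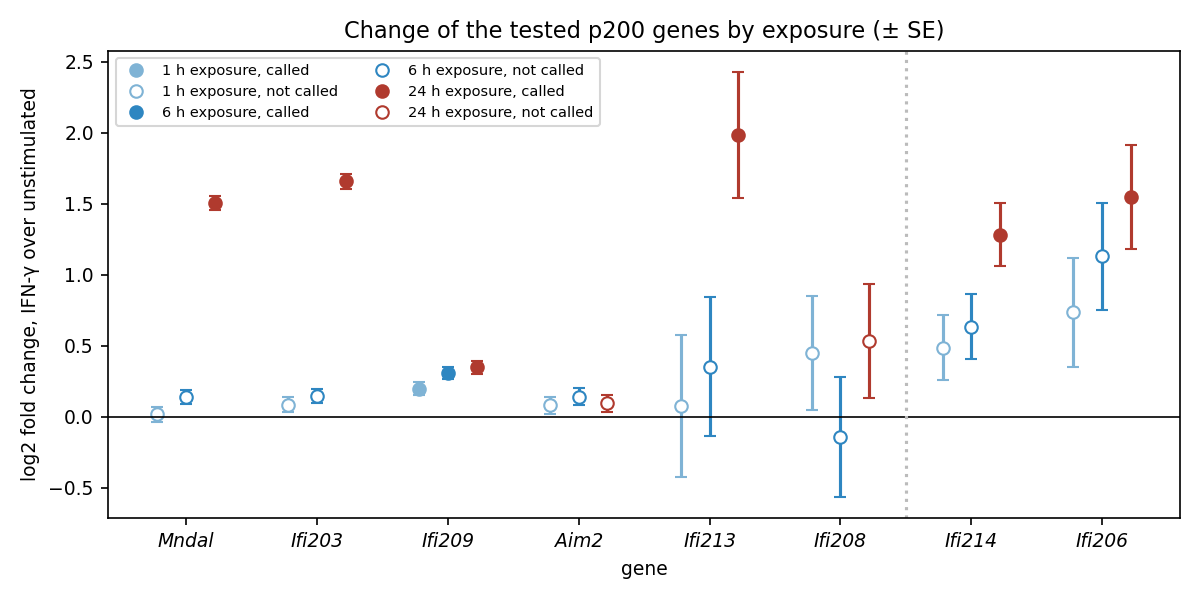
Log2 fold change of IFN-γ over unstimulated cells for the 8 tested p200 genes after 1 h, 6 h and 24 h, with bars of 1 SE; filled points passed the edgeR test and open points did not. Ifi206 and Ifi214, right of the dotted line, are p200 genes outside the 8; Ifi209 alone has 3 filled points.

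Among the 5 other p200 genes in the table, Ifi206 and Ifi214 were tested and both rose after 24 h. Ifi214 had 168, 160 and 194 counts after 24 h against 50, 55 and 91 in unstimulated libraries, a log2 fold change of 1.28 ± 0.222 (adjusted p = 8.54e-05). Ifi206 had 52, 46 and 52 counts after 24 h against 14, 8 and 25 in unstimulated libraries, a log2 fold change of 1.55 ± 0.368 (adjusted p = 0.00299). GAAATCGAAA stood 79 bases before the start of Ifi214 and 40 before that of Ifi206. After 6 h the log2 fold change was 0.64 for Ifi214 (adjusted p = 0.177) and 1.13 for Ifi206 (adjusted p = 0.14), and neither was called. Without IFNg_6h replicate 3, in which Ifi214 had 139 counts beside 74 and 95, its 6 h change was 0.31 (adjusted p = 0.539). Ifi202b, the inhibitor of AIM2, had 1 count in all 12 libraries together, and Ifi205 and Ifi211 had at most 4 counts in any library.

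Near-identical stretches limit how reads can be assigned. Of the 125-base stretches in the annotated transcripts of Ifi209, 12.8% also occur in Ifi214, and of those in Ifi204 8.58% occur in other genes, mostly in Ifi211. The shared part was 3.4% for Ifi208, 3.26% for Mndal, 1.74% for Ifi203 and 1.32% for Ifi213, and 0 for Aim2 and Ifi207. Among the other p200 genes it was 51.7% for Ifi211, 13.8% for Ifi205, 9.26% for Ifi206, 5.52% for Ifi214 and 0 for Ifi202b. What part this sharing had in the low counts of Ifi211 and Ifi205 was not tested. Ifi214 had at most 194 counts in any library, while Ifi209 had at least 6686.

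Genes of the AIM2 pathway and of other inflammasomes were read from a list of 21 inflammasome genes. Il1b and Il18 had at most 8 and 12 counts in any library and were not tested. Of the 21 genes, 15 were tested. After 24 h 5 were called higher and 1 lower, where 10.3% of all tested genes were higher and 18.7% called in all, and the median change was 0.19 on the log2 scale over those tested, beside -0.0028 over all tested genes. Casp1, the protease that AIM2 engages through ASC, averaged 40.4 ± 2.99 CPM after 24 h against 19.98 ± 1.81 CPM in unstimulated cells; the log2 fold change was 1.01 ± 0.0713 with an adjusted p of 4.43e-12. Casp4, the mouse caspase-11 that responds to cytosolic lipopolysaccharide, averaged 1.66 ± 0.271 CPM after 24 h against 0.445 ± 0.083 CPM in unstimulated cells, and its log2 fold change was 1.89 ± 0.279 with an adjusted p of 8.83e-06. Pycard, which encodes ASC, had 34, 28 and 44 counts after 24 h against 8, 12 and 18 in unstimulated libraries, a log2 fold change of 1.33 ± 0.428 (adjusted p = 0.0286). Without IFNg_24h replicate 1 or without unstimulated replicate 1, 3 of the list were called instead of 6. In these runs 14.2% and 12.4% of all tested genes were called, beside 18.7% in the full fit. After 6 h and after 1 h edgeR and DESeq2 called 0 of the 15, with an unadjusted edgeR p under 0.05 for 3 after 6 h (14% of all tested genes) and for 1 after 1 h (9.26% of all). Comparing 24 h with 6 h gave 4 called higher and 0 lower, where 8.92% of all tested genes were called higher.

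A list of 25 genes of cytosolic DNA sensing and nucleic acid control had 23 tested, of which 7 were called higher after 24 h and 0 lower, where 10.3% of all tested genes were called higher. One of the 7, Zbp1, passed the filter on low counts through the 24 h group, and without it the count is 6 of 22. The median log2 fold change was 0.02 over those tested. Zbp1, a sensor of Z-form nucleic acid, had 226, 203 and 208 counts after 24 h against 2 in each unstimulated library. Irf7, a transcription factor of the interferon response, averaged 1.54 ± 0.261 CPM after 24 h against 0.44 ± 0.177 CPM in unstimulated cells, and rose by 1.79 ± 0.328 on the log2 scale (adjusted p = 0.000181). Samhd1, which degrades deoxynucleotides, averaged 572 ± 15.2 CPM after 24 h against 235 ± 6.56 CPM in unstimulated cells, and rose by 1.28 ± 0.041 on the log2 scale (adjusted p = 2.83e-20). Samhd1 was also the 1 gene of the list called after 6 h, at 0.19 ± 0.0407 (adjusted p = 0.0117), where 1.59% of all tested genes were called. Its 6 h call was lost without IFNg_6h replicate 2 or unstimulated replicate 1. In these runs 0.643% and 0.608% of all tested genes were called. Sting1, the adaptor below cGAS and several p200 proteins, was the 1 gene called after 1 h (0.42% of all tested genes were called), where it was lower by a log2 fold change of -0.36 ± 0.0819 (adjusted p = 0.0384). This call was lost when any 1 h library, or unstimulated replicate 1 or 3, was left out. In these runs 0.102 to 0.301% of all tested genes were called. After 24 h Sting1 was higher, at 27.8 ± 3.6 CPM against 21.2 ± 1.62 CPM in unstimulated cells, with a log2 fold change of 0.39 ± 0.08 (adjusted p = 0.000634).

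Genes whose course over the 12 libraries was most like each member were found by the Euclidean distance between log2(CPM + 1) values centred on the unstimulated mean, among 10938 genes. For Mndal they were Sp140 (distance 0.256) and Dtx3l (0.285), with log2 fold changes of 1.60 and 1.54 after 24 h and 0.20 and 0.13 after 6 h. For Ifi203 they were Sp140 (0.309) and Mndal (0.33). The nearest genes to Ifi209 were Sspn (0.194) and Ift80 (0.234), with log2 fold changes of 0.38 and 0.32 after 24 h and 0.41 and 0.24 after 6 h. Those nearest to Aim2 were Prr11 (0.131) and Gen1 (0.135), with log2 fold changes of 0.09 and 0.06 after 24 h.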

How the data were processed

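The values are whole-number counts per gene in a single table, as the authors deposited it. The submitters' processing notes name the mm10 build and the tools featureCounts 1.4.3-p1, STAR 2.5.2a and Picard. Not given in the sources used here are strand setting, annotation and the treatment of multi-mapping reads. Low counts were mostly even (69.9 to 73.9% of genes with 1 to 20 counts per library), as when each mate of a pair is counted, so intervals, which cover counting error only, are too narrow. The header doubles its separators; its 12 names were matched in order to the 12 value columns and to the titles.

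Genes were filtered with filterByExpr by group, scaled with TMM, and 4 groups of 3 libraries were fitted together in edgeR 4.0.16 (R 4.3.3) with robust quasi-likelihood F tests (8 residual degrees of freedom, common biological coefficient of variation 0.0579); adjusted p-values are Benjamini-Hochberg over all 14299 genes tested. The fit was tested on simulated counts. The SE of a log2 fold change is its size over the square root of the F statistic. Levels in CPM were computed from the deposited counts and effective library sizes. Chi-square over its degrees of freedom was 2.53 to 8.48 between libraries of a group; with both mates counted, noise alone would give about 2. No library was taken as a repeat of another, which does not show that they are separate cultures. Exon lengths and coordinates came from GENCODE M21, promoters from RefSeq.

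The 8 genes and the lists were chosen with earlier results of these data known. Named are all p200 genes, the 3 called list members with the largest 24 h change (all called ones where these were 5 or fewer), Irf1, and the 2 genes most like each member with a mean of at least 1 CPM; Zbp1 is given as counts. One result that the rule takes is not reported here. The remaining genes named were chosen after their values were seen. Alternatives were DESeq2 1.42.0, RLE factors, 2 other filters, a replicate block, halved counts, removal of a length trend, the 6 libraries compared only, and each library left out in turn.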

Additional observations from a re-analysis of the deposited data

Results flagged for a closer look

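Exposure for 24 h and for 6 h, each set against the same unstimulated cells, gave different changes for 3 of the 6 tested genes in the test of the difference itself, where 16.5% of all tested genes were called, 8.92% as higher. From 24 h against 6 h, the log2 fold change was 1.37 for Mndal (edgeR adjusted p = 1.51e-18), 1.51 for Ifi203 (adjusted p = 1.12e-19) and 1.63 for Ifi213 (adjusted p = 0.00774). The Ifi213 value rests on 27, 52 and 48 counts after 24 h and 9, 17 and 12 counts after 6 h. Its call ended without IFNg_24h replicate 2 or IFNg_6h replicate 1 (adjusted p = 0.069 and 0.0609).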

How the results depend on the processing

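Among the 8 genes, 4 were called after 24 h of IFN-γ against unstimulated cells in all 6 runs with 1 library left out. Of all tested genes, 12.4 to 17.2% were called in those runs. The count ranged in such runs from 1 to 2 for 6 h against unstimulated cells (0.608 to 3.64% of all tested genes called). For 1 h against unstimulated cells it ranged from 0 to 1 (0.102 to 0.779%). For 24 h against 6 h it was 2 to 3 (11.5 to 19.2%), and for 24 h against 1 h 3 to 4 (13 to 15.1%). Between 6 h and 1 h it stayed at 0 (0.0547 to 0.164%). The labels do not say whether samples with the same replicate number are paired. Between such samples the correlation of deviations from the group means was over 0.1 in 2 of 18 pairs (range -0.128 to 0.119). Samples with unlike numbers were not compared in this way, so a pairing is not excluded. With the number as a replicate block, the counts were 4, 1 and 1 for 24 h, 6 h and 1 h against unstimulated cells. They were 3 for 24 h against 6 h, 4 for 24 h against 1 h and 0 for 6 h against 1 h. These counts were the same as without the block. Of all tested genes, 19.2%, 1.85%, 0.545%, 17.3%, 19.5% and 0.112% were called with the block, in that order. A filter of at least 1 CPM in 3 libraries left Ifi213 out and gave 3, 2 and 3 for 24 h against unstimulated cells, 6 h and 1 h. Of the 11228 genes tested under that filter, 23.5%, 20.6% and 23.8% were called in these comparisons. Ifi214, called for 24 h against 6 h at 0.65 (adjusted p = 0.0347), was called in 1 of the 6 runs that left out a library. No log2 fold change of a p200 gene that passed the test changed sign under any alternative run. Depth limits Ifi204, Ifi207, Ifi208 and Ifi213, which had at most 52 counts in any library.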
